A study of Rattus norvegicus with 9 samples.

Results

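A set of 43 genes that act in DNA replication and in the passage from G1 to S phase was followed in rat knee tissue by RNA sequencing. The genes were picked by symbol, with earlier results of these data known. The rule itself used no measured value except that a gene be above 0 TPM in at least 3 libraries. All 43 were found among the 17602 genes of the deposited table, all 43 were above 0 TPM in all 9 libraries, and all 43 were therefore among the 16512 genes tested. TPM expresses the abundance of a transcript per unit of its length, in parts of 1000000 for each library.

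The animals were wild-type male Lewis rats aged 10 to 12 weeks, and the 9 libraries fell into 3 groups of 3. The intact group was synovium, the tissue that lines the joint, taken around the medial meniscus of knees without surgery. The sham group gave synovium of that site 1 week after the joint capsule had been opened and closed. The pMx group was tissue regenerating 1 week after a partial medial meniscectomy (pMx), surgery in which the front portion of this meniscus is lost. Synovium next to the new tissue was left out. Surgery and the kind of tissue collected thus changed together between sham and pMx, and their effects cannot be told apart. The titles call the libraries of a group biological replicates, but nothing in the labels says which came from separate animals. In the study the meniscectomy was done on both knees of a rat. The p-values therefore measure the spread between these libraries. Read numbers cannot be recovered from TPM, so library depth is unknown and values carry no counting error here.

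Replication is prepared in G1, when the origin recognition complex, CDC6 and CDT1 load the ring-shaped MCM2-7 helicase onto DNA. The helicase is switched on at the start of S phase by CDC45, the GINS complex and MCM10, and DNA polymerases, a sliding clamp and its loader then copy the strands while nucleotide enzymes supply the building blocks. Many of these genes are transcribed by E2F factors once cyclin E and its kinase have helped to inactivate the retinoblastoma protein RB. In healthy adult synovium few cells divide, and the synovium and its cells are known to expand after joint injury.

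Almost the whole set was higher in the regenerating tissue than in sham synovium. Of the 43 genes, 40 passed the test at an adjusted p below 0.05 in limma and were higher in pMx, and 0 were lower. Across all genes tested, 17.7% were called higher and 18.9% lower in this comparison. The 3 genes that did not pass were Pola1, Pola2 and Tyms. The median log2 fold change of the 43 genes was 0.96, against -0.01 for all genes tested. Past an absolute log2 fold change of 1 as well, 20 of the 43 were higher, while 3.36% of all genes were.

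Fewer of the 43 genes passed between sham and intact synovium. Here 17 passed the test and were higher in sham, and 0 were lower, against 6.73% higher and 5.97% lower among all genes. The median log2 fold change was 0.42, against -0.02 for all genes. With 1 added to TPM, Mcm5, Rrm2 and Tk1 also exceeded a log2 fold change of 1, which 1.42% of all genes did, and this count of 3 was 12 with a pseudocount of 0.1 and 13 with 0.01. When 1 library was left out, Mcm5, Pole, Rrm2 and Tk1 passed in 9 of 9 fits and the other 13 genes in 1 to 7 of them. Both comparisons use the same sham libraries, so they are not independent. Between pMx and intact, 41 of the 43 genes were higher and 1, Pola2, was lower, where 23.4% of all genes were higher and 27.1% lower. The median log2 fold change was 1.43, against -0.03 for all genes. Of the 41, 25 also exceeded a log2 fold change of 1, which 6.40% of all genes did.

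The libraries of the groups were also well separated. For 40 of the 43 genes every pMx library lay above every sham library, which 27.0% of all genes showed, and for 41 every pMx library lay above every intact library, against 26.9% of all genes. For 24 of the 43 every sham library lay above every intact library, against 14.2% of all genes. In 24 of the 43 genes all 9 libraries followed the order intact, sham, pMx without overlap, which 7.7% of all genes did. For 41 of the 43 the group means rose in that order, against 26.5% of all genes, and the exceptions were Pola1 and Pola2.

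**Figure D1:**
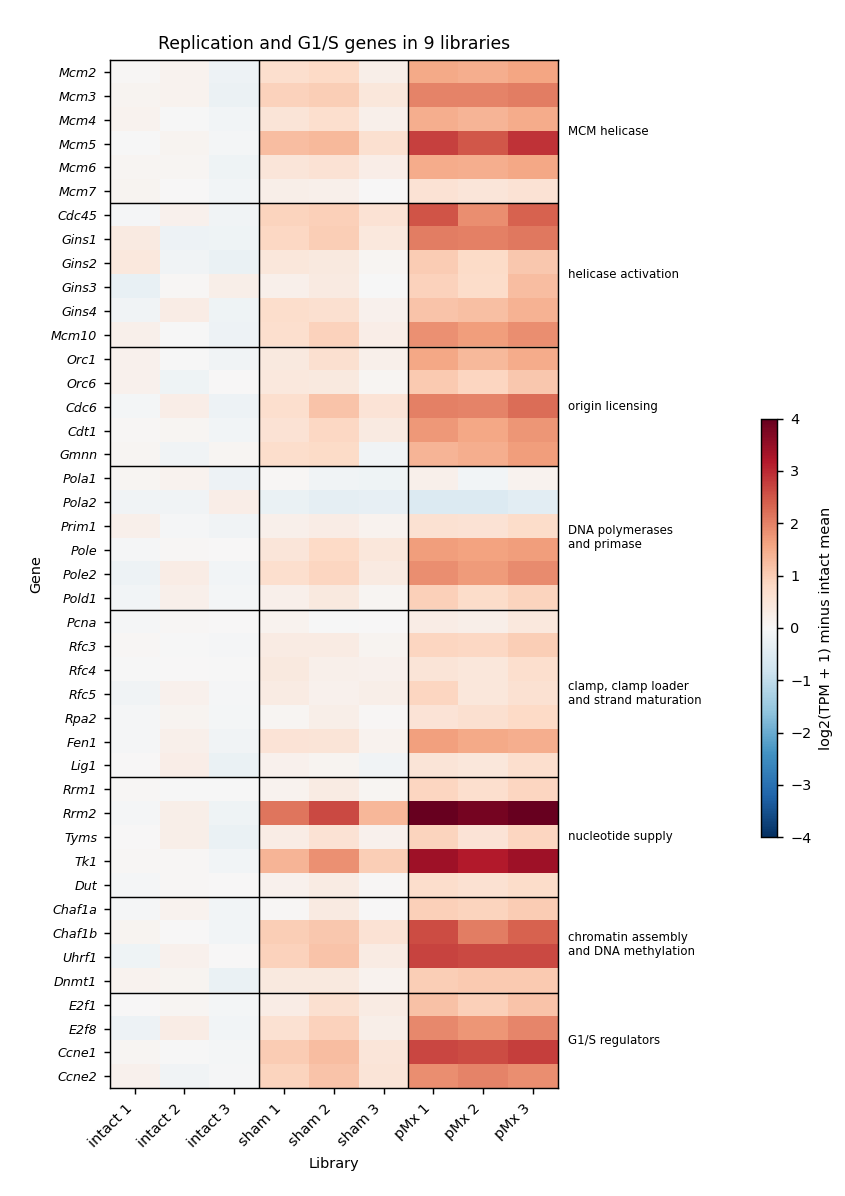
Level of each of the 43 genes in the 9 libraries as log2(TPM + 1) minus the mean of the 3 intact libraries, with genes in rows by role and libraries in columns by group. For 41 of the 43 genes the group means rise from intact to sham to pMx, and Pola1 and Pola2 are the rows that break the pattern.

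Because these genes are known for E2F sites near their start, the promoter sequences were searched for TTTNNCGC, the core of the E2F motif, on both strands (GCGNNAAA on the other). RefSeq sequences of the rat assembly GRCr8, from 250 bases before to 50 after each start site, were found for 35 of the 43 genes. The 35 genes have 38 windows, and a match was present for 18 of the 35 (51.4%), against 4.92% of all 33469 windows and 7.93% of the 13298 tested genes with a window. The windows of the 43 genes were richer in G and C, with a median of 60.0% against 51.7% for all windows, and 7.94% of the 7077 windows with a GC content of 55.4% to 64.3% held a match. In 4 of the genes, Gins1, Mcm2, Mcm6 and Mcm5, matches on opposite strands overlap. A match is a description of letters and not a measured binding site.

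The 6 sequences below belong to the genes with a match that had the highest TPM in pMx, and they are shown because they carry the motif in the set's most abundant transcripts with one. Each runs 5′ to 3′ on the gene's strand from 150 bases before to 30 after the RefSeq start, on GRCr8, with the matches in capitals. In Mcm2 and Mcm6 the capitals hold matches on both strands that overlap. Rfc3 has a match on each strand, and a further match of Mcm7, 233 bases before its start, lies outside the stretch shown.
Mcm7 (chr12:22163149-22163328, minus strand): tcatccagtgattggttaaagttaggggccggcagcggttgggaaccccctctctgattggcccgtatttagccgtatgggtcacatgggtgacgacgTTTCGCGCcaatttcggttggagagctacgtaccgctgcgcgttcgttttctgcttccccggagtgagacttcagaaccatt
Mcm2 (chr4:122918065-122918244, minus strand): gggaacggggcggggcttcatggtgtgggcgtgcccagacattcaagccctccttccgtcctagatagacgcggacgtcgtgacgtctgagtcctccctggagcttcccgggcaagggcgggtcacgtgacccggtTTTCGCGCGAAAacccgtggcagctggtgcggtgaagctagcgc
Mcm6 (chr13:42404323-42404502, minus strand): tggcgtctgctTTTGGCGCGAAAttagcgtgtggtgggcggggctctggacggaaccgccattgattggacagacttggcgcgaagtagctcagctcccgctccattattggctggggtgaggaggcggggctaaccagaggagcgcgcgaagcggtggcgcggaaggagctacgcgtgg
Rpa2 (chr5:150260622-150260801, plus strand): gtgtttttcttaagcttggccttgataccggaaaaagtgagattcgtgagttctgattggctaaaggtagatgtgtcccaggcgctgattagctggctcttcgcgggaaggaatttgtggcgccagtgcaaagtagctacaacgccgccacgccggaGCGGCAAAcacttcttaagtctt
Lig1 (chr1:83243020-83243199, plus strand): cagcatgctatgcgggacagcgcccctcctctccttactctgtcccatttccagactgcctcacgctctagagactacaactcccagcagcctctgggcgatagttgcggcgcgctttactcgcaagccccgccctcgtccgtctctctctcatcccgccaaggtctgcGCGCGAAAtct
Rfc3 (chr12:5836418-5836597, plus strand): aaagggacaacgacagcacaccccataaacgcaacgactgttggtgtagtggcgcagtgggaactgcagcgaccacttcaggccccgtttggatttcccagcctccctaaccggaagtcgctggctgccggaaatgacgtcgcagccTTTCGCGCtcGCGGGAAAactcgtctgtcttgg

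Nearly all genes passed the test between pMx and sham whether or not they held a match. The median log2 fold change between pMx and sham was 1.01 for the 18 genes with a match, of which 16 passed the test, and 0.64 for the 17 without, of which 16 passed. The 8 genes without a window had a median of 1.03, and 8 of 8 passed. Pola1 and Tyms hold a match and did not pass, whereas Tk1 and Ccne1 have a window without one and were among the genes with the largest increases.

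The MCM2-7 helicase unwinds DNA ahead of the fork. All 6 of its subunits were higher in pMx than in sham, against 17.7% of all genes. Mcm5 differed most. It was at 2.68, 3.02 and 2.58 TPM in intact, 7.77, 8.32 and 4.85 in sham, and 23.74, 20.22 and 26.84 in pMx. The 3 groups did not overlap, and sham replicate 3 was the lowest sham library. Between pMx and sham the log2 fold change was 1.64 (SE 0.18, adjusted p = 0.0002578), and it was 1.06 (SE 0.18, adjusted p = 0.01124) between sham and intact. Mcm3 (log2 fold change 1.22) and Mcm6 (1.05) also passed both thresholds between pMx and sham. Mcm2 (0.96), Mcm4 (0.97) and Mcm7 (0.41) passed the test below a log2 fold change of 1. Between sham and intact 5 of the 6 subunits were higher, against 6.73% of all genes. Their log2 fold changes ran from 0.44 for Mcm6 to 1.06 for Mcm5. Leaving out 1 library kept that call in 9 of 9 fits for Mcm5, 7 for Mcm3, 5 for Mcm6, 2 for Mcm4 and 1 for Mcm2. Mcm7 had a value of 0.15 that did not pass.

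Since MCM2-7 is assembled from 6 different subunits, their levels were compared within each library on the TPM scale, which corrects for transcript length. Mcm7 was the most abundant subunit in every library. It was at 28.91, 27.38 and 24.89 TPM in intact, 31.8, 31.14 and 27.22 in sham, and 41.18, 38.57 and 40.54 in pMx. Its sham and intact libraries overlapped, and the pMx libraries lay above both. The ratio of the most to the least abundant subunit was 10.8, 9.07 and 9.65 in the intact libraries, 4.09, 3.74 and 5.61 in sham, and 1.73, 1.91 and 1.62 in pMx. The 3 ranges did not overlap, so the subunits lay closest together in the regenerating tissue. The coefficient of variation over the 6 mean levels was 73.0% in intact, 49.7% in sham and 21.1% in pMx. The 4 GINS subunits showed no such order, with ratios of 3.45, 4.05 and 3.39 between the highest and lowest mean level in the intact, sham and pMx groups. No test was run on these ratios.

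**Figure D2:**
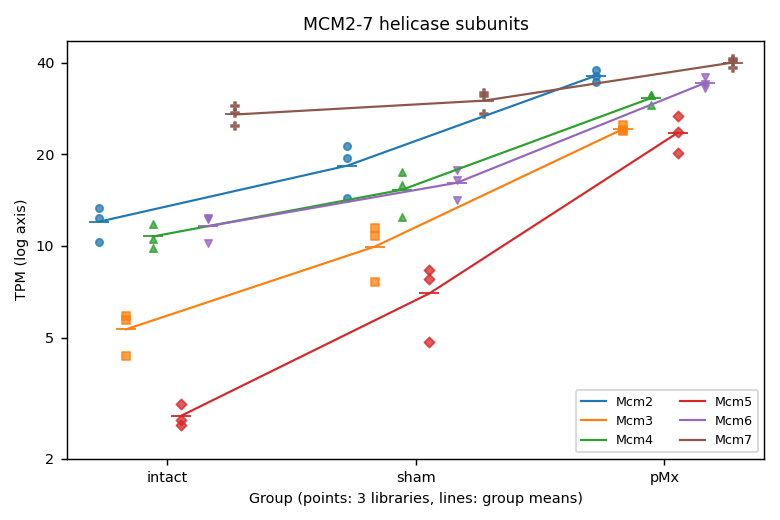
TPM of the 6 MCM2-7 subunits on a log axis, with 3 libraries per group as points and the group means joined by lines. Mcm7 starts at a mean of 27.1 TPM in intact and Mcm5 at 2.76, and in pMx the means lie between 23.6 and 40.1.

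The factors that activate the loaded helicase were all higher in pMx than in sham, 6 of 6, against 17.7% of all genes. Cdc45, whose product joins MCM2-7 and GINS in the moving helicase, was at 0.98, 1.31 and 0.86 TPM in intact, 2.77, 2.92 and 2.02 in sham, and 10.65, 6.44 and 9.57 in pMx. The groups did not overlap, and pMx replicate 2 was well below the other pMx libraries. Its log2 fold change was 1.45 (SE 0.19, adjusted p = 0.0005099) between pMx and sham. Gins1 (1.30) and Mcm10 (1.17), a scaffold that binds the helicase, also passed both thresholds, and Gins2 (0.64), Gins3 (0.79) and Gins4 (0.74) passed the test. Gins2 passed in only 4 of the 9 fits that left out 1 library. Between sham and intact Cdc45 (0.80) and Gins1 (0.75) were higher, in 6 and 2 of these 9 fits. Mcm10 had a value of 0.62 with an adjusted p of 0.05082 in limma, just above the threshold.

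Origin licensing, the loading step of G1, was represented by 5 genes. All 5 were higher in pMx than in sham, against 17.7% of all genes. Cdc6, a loader of MCM2-7, was at 0.25, 0.58 and 0.13 TPM in intact, 1.08, 1.91 and 0.9 in sham, and 4.31, 4.21 and 5.14 in pMx. The 3 groups did not overlap. Its log2 fold change was 1.29 (SE 0.18, adjusted p = 0.0008191) between pMx and sham and 0.79 (SE 0.18, adjusted p = 0.02835) between sham and intact. Cdt1, the partner of CDC6 in loading, gave 1.09 and 0.58 in the same comparisons and passed in both. For sham against intact Cdc6 passed in 6 and Cdt1 in 5 of the 9 fits without 1 library.

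Gmnn encodes geminin, which binds CDT1 and blocks loading after S phase has begun, and it was also higher. Its values were 6.68, 5.64 and 6.74 TPM in intact, 10.98, 11.43 and 5.65 in sham, and 17.98, 19.19 and 22.35 in pMx. Sham replicate 3 lay within the intact range, and every pMx library lay above all others. The gene rose by 1.06 on the log2 scale (SE 0.23, adjusted p = 0.006758) between sham and pMx, and the value of 0.44 between sham and intact did not pass.

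Orc1, the large subunit of the origin recognition complex, was the least abundant of the 43 genes in intact, at 0.29, 0.15 and 0.04 TPM. It was at 0.53, 0.79 and 0.33 in sham and at 2.34, 1.82 and 2.22 in pMx, without overlap between the groups. The log2 fold change was 1.02 (SE 0.13, adjusted p = 0.0004835) between pMx and sham, on a log2(TPM + 1) scale that understates the change of a gene this low. Orc6 gave 0.70 and passed. The other ORC genes, named after their values were seen, did not pass in this comparison, with log2 fold changes of 0.09 for Orc2, -0.01 for Orc3, -0.24 for Orc4 and -0.04 for Orc5. They were at 12.3 to 17.4 TPM in pMx, above the mean of 2.13 for Orc1 and of 8.05 for Orc6. Differences between subunits were not tested.

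Of the 6 genes of the DNA polymerases and primase, 4 were higher in pMx than in sham, against 17.7% of all genes. Pola1 and Pola2 did not pass. Pole, the catalytic subunit of the leading-strand polymerase epsilon, was at 0.81, 0.94 and 0.88 TPM in intact, 1.65, 2.27 and 1.55 in sham, and 4.97, 4.69 and 4.94 in pMx. No overlap between groups was seen, and the pMx libraries lay close to each other. Between pMx and sham the log2 fold change was 1.06 (SE 0.11, adjusted p = 0.0001587), and it was 0.58 (SE 0.11, adjusted p = 0.01353) between sham and intact. Its partner Pole2 gave 1.19 and 0.63 and passed in both, but between sham and intact it passed in only 2 of 9 fits without 1 library, against 9 of 9 for Pole. Pold1, the catalytic subunit of polymerase delta, gave 0.63 between pMx and sham, and Prim1, the primase that makes the RNA primer, gave 0.43. Both passed, and neither passed between sham and intact.

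Polymerase alpha, which extends the primer, is encoded in part by the genes that did not pass. Pola1, its catalytic subunit, was at 6.7, 6.98 and 5.36 TPM in intact, 6.6, 5.62 and 5.46 in sham, and 7.41, 5.78 and 7.06 in pMx. The groups overlapped throughout, and the log2 fold change of 0.17 between pMx and sham had an adjusted p of 0.3636 in limma. Pola2, the second subunit, was at 16.47, 16.49 and 21.78 TPM in intact, 14.77, 13.96 and 14.33 in sham, and 12, 12.05 and 13.22 in pMx. Every pMx library lay below every sham library, and every sham library lay below every intact library. Its log2 fold change was -0.19 (adjusted p = 0.2059) between pMx and sham, -0.31 (adjusted p = 0.09855) between sham and intact, and -0.51 (adjusted p = 0.004754) between pMx and intact. Pola2 was the only one of the 43 genes called lower in any comparison. Without intact replicate 3, its highest library, Pola2 also passed as lower between pMx and sham.

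Within the same polymerases, subunits outside the set, named after their values were seen, were also looked at. Pold2, Pold3 and Pold4 had log2 fold changes of -0.03, 0.08 and -0.08 between pMx and sham and did not pass. Pole3 had -0.27 and did not pass, and Pole4 fell by 0.34 on the log2 scale (adjusted p = 0.002591 in limma). Prim2, the partner of PRIM1, was higher by 0.35, a call that stood in 3 of 9 fits without 1 library.

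All 7 genes of the clamp, its loader and strand maturation were higher in pMx than in sham, against 17.7% of all genes. Their log2 fold changes ran from 0.26 to 1.14. Pcna, the sliding clamp that holds polymerases on DNA and a common marker of proliferation, was the most abundant of the 43 genes in every group. It was at 81.3, 87.09 and 86.05 TPM in intact, 93.56, 84.66 and 85.22 in sham, and 103.92, 99.51 and 113.28 in pMx. The pMx libraries lay above all others, while sham and intact overlapped. The log2 fold change of 0.26 (SE 0.07, adjusted p = 0.0147) between pMx and sham was the smallest of the genes that passed. When 1 library was left out, Pcna and Lig1 passed in 6 of 9 fits, Rfc4 in 5 and Rfc5 in 4.

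Fen1, the nuclease that trims Okazaki fragments, was the gene of this group that passed both thresholds. It was at 4.51, 5.53 and 4.23 TPM in intact, 7.41, 7.13 and 5.35 in sham, and 16.87, 15.48 and 14.76 in pMx. Sham replicate 3 lay just inside the intact range, and the pMx libraries stood apart. The gene rose by 1.14 on the log2 scale (SE 0.14, adjusted p = 0.0003645) between sham and pMx. The clamp loader subunits gave 0.64 for Rfc3, 0.30 for Rfc4 and 0.40 for Rfc5, the single-strand binding protein Rpa2 gave 0.54 and the ligase Lig1 gave 0.50. In this group 0 of 7 genes passed between sham and intact, near the 6.73% higher and 5.97% lower of all genes. The values ran from 0.05 for Pcna to 0.40 for Fen1. Their partners outside the set were named after their values were seen. Of these, Rfc2 (0.58) and Rpa3 (0.39) were higher in pMx than in sham, in 9 and 5 of 9 fits without 1 library. Rfc1 (-0.16) and Rpa1 (-0.01) did not pass.

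Log2 fold changes of the 5 nucleotide supply genes between pMx and sham ran from 0.41 for Tyms to 1.96 for Rrm2. The value of Rrm2 was the largest of the 43 genes on the log2(TPM + 1) scale. Rrm2 encodes the small subunit of ribonucleotide reductase, which makes deoxynucleotides and whose level rises in S phase. It was at 1.26, 1.75 and 1.09 TPM in intact, 9.43, 13.52 and 4.9 in sham, and 38.88, 32.24 and 38.41 in pMx. The groups did not overlap, and the sham libraries were the most spread. The log2 fold change was 1.96 (SE 0.29, adjusted p = 0.00105) between pMx and sham and 2.03 (SE 0.29, adjusted p = 0.005973) between sham and intact. The mean in pMx was 26.7 times that in intact, the largest ratio of the 43 genes.

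Its partner Rrm1, the large subunit, started from a higher level. It was at 29.33, 27.89 and 28.22 TPM in intact, 31.24, 36.23 and 29.85 in sham, and 51.94, 46.3 and 52.13 in pMx. The 3 groups did not overlap. Between pMx and sham the log2 fold change was 0.62 (adjusted p = 0.000647 in limma), and 0.18 between sham and intact, which did not pass. The mean of Rrm1 was 28.5 TPM in intact against 1.37 for Rrm2, and 50.1 against 36.5 TPM in pMx.

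Tk1, the thymidine kinase of the salvage route, was at 3.34, 3.35 and 2.94 TPM in intact, 9.75, 13.86 and 7.34 in sham, and 43.1, 37.03 and 43.05 in pMx. No overlap between groups was seen. Its log2 fold change was 1.93 (SE 0.19, adjusted p = 0.0001406) between pMx and sham and 1.39 (SE 0.19, adjusted p = 0.005244) between sham and intact. Dut, which removes dUTP from the pool, gave 0.51 between pMx and sham and passed. Tyms, the synthase of thymidylate, was at 17.09, 20.53 and 15.46 TPM in sham and 25.83, 20.45 and 25.19 in pMx. The lowest pMx library lay just under the highest sham library, and the value of 0.41 did not pass (adjusted p = 0.07089 in limma). Tyms was higher in pMx than in intact, by 0.76 (adjusted p = 0.003617).

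The 4 genes of chromatin assembly and DNA methylation were all higher in pMx than in sham, against 17.7% of all genes. Uhrf1, which reads hemimethylated DNA behind the fork and recruits DNMT1, was at 1.25, 1.84 and 1.56 TPM in intact, 3.82, 4.62 and 2.21 in sham, and 15.48, 14.82 and 14.92 in pMx. The groups did not overlap. The gene rose by 1.86 on the log2 scale (SE 0.19, adjusted p = 0.000196) between sham and pMx and by 0.80 (SE 0.19, adjusted p = 0.03303) between intact and sham, where it passed in 2 of 9 fits without 1 library. Dnmt1, the maintenance methyltransferase itself, was at 12.65, 12.35 and 9.09 TPM in intact, 14.9, 15.19 and 12.53 in sham, and 23.44, 24.5 and 24.13 in pMx. Its pMx libraries lay above all others, sham and intact overlapped, and the log2 fold change between pMx and sham was 0.72 (adjusted p = 0.002471). Of the subunits of the histone chaperone CAF-1, Chaf1b gave 1.46 and Chaf1a 0.81 between pMx and sham, and only Chaf1b (0.88) passed between sham and intact, in 6 of 9 fits without 1 library.

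The G1/S regulators were higher in pMx than in sham for 4 of 4 genes, against 17.7% of all genes. Ccne1, a cyclin E gene, was at 0.98, 0.87 and 0.77 TPM in intact, 2.77, 3.42 and 1.63 in sham, and 10.92, 10.49 and 11.85 in pMx. No overlap between groups was seen. The log2 fold change was 1.78 (SE 0.18, adjusted p = 0.0001521) between pMx and sham and 0.91 (SE 0.18, adjusted p = 0.01598) between sham and intact. Ccne2, the other cyclin E gene, gave 1.05 and 0.86 and passed in both. The sham to intact call held for Ccne1 in 7 and Ccne2 in 6 of the 9 fits without 1 library. In intact the genes were at 0.873 and 0.833 TPM on average, and in pMx Ccne1 was at 11.1 TPM and Ccne2 at 5.82.

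E2f1, an activator among the E2F factors, and E2f8, a repressor of the same targets, both rose between sham and pMx. E2f8 was at 0.03, 0.45 and 0.1 TPM in intact, 0.81, 1.25 and 0.38 in sham, and 3.46, 3.01 and 3.54 in pMx. Sham replicate 3 lay within the intact range, and every pMx library lay above the others. The log2 fold change of E2f8 between pMx and sham was 1.28 (SE 0.19, adjusted p = 0.001026), and that of E2f1 was 0.67 (SE 0.12, adjusted p = 0.002451). Between sham and intact neither passed, with adjusted p of 0.05181 for E2f1 and 0.07606 for E2f8 in limma.

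**Figure D3:**
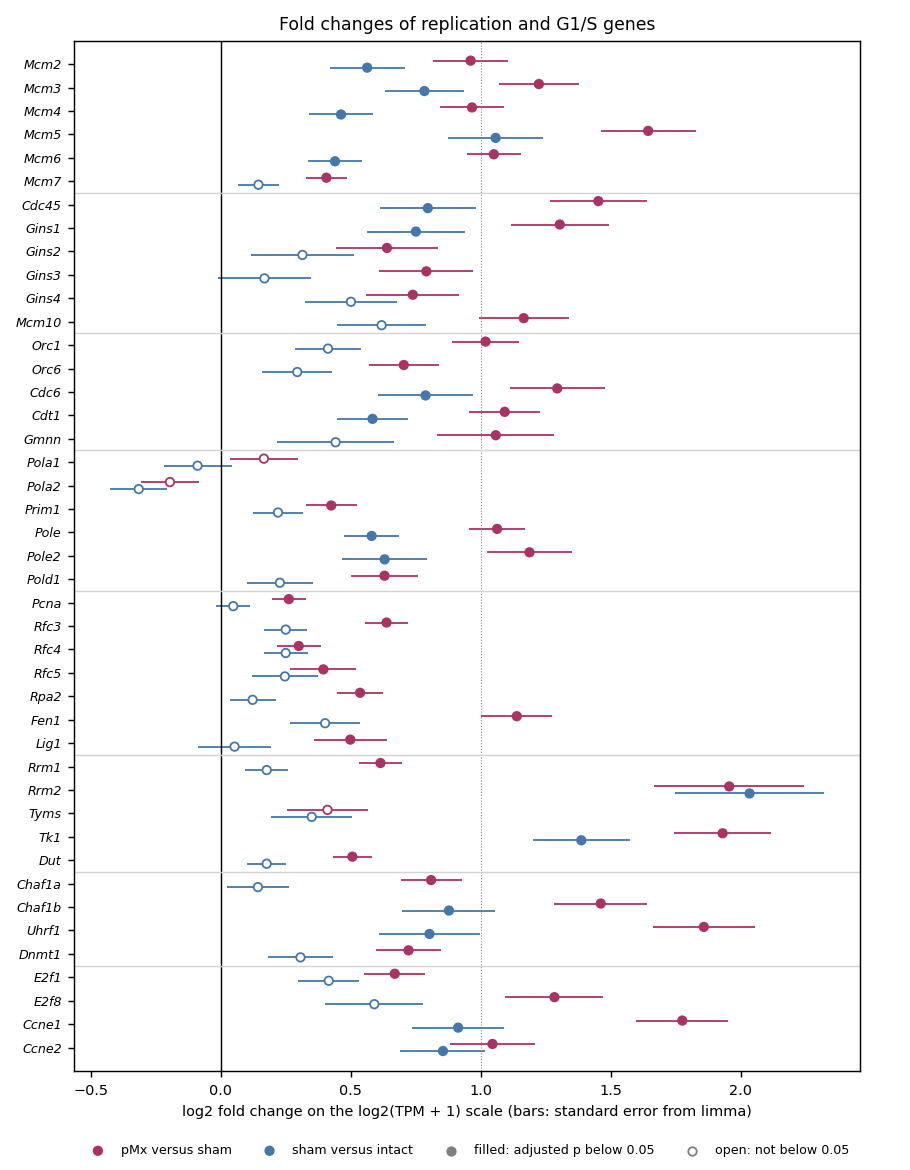
Log2 fold change of each gene on the log2(TPM + 1) scale between pMx and sham and between sham and intact, with standard errors from limma as bars, 3 libraries per group, and filled points for an adjusted p below 0.05. The filled points number 40 for pMx versus sham and 17 for sham versus intact, and the dotted line marks a log2 fold change of 1.

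Within the set, the size of the change went with the level in intact tissue. Whether all genes tested show such a relation was not computed. The 14 genes under 2 TPM in intact had a median pMx to sham ratio of mean TPM of 3.47, with a range of 2.47 to 4.25. The 13 genes from 2 to 10 TPM had a median of 1.86, and the 16 genes of 10 TPM or more had a median of 1.43, with a range from 0.866 for Pola2 to 2.13 for Mcm6. Orc1, Cdc6, Ccne1 and E2f8 were among the first class, and Pcna, Dut and Mcm7 among the last. Across the 43 genes Pearson's r between the log2 intact mean and the log2 ratio was -0.83 and Spearman's rho was -0.85. The intact mean and the pMx to sham ratio use no library in common, but the genes share the 9 libraries and are not independent, so these are descriptions without a test. The medians of the sham to intact ratio in the same classes were 2.67, 1.39 and 1.19, where the intact mean enters both measures.

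**Figure D4:**
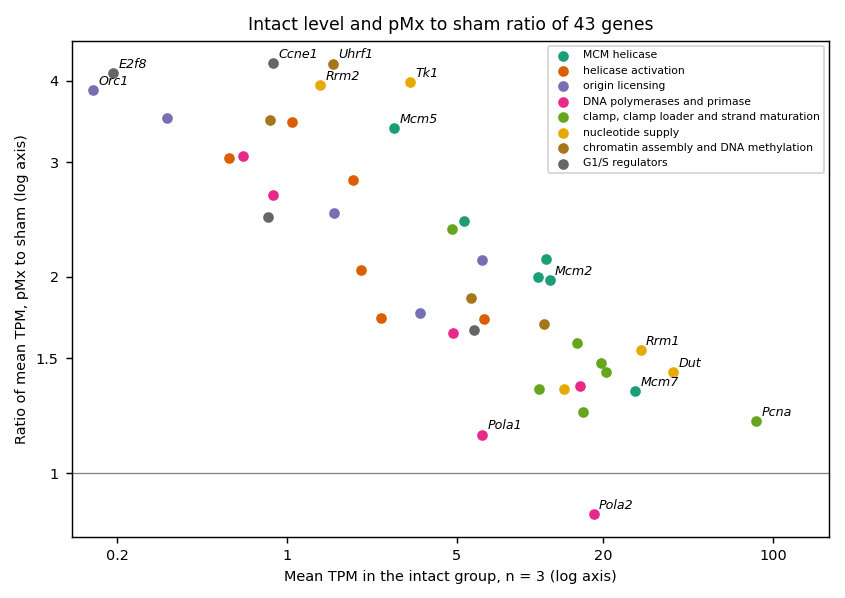
Mean TPM of each of the 43 genes in the intact group (log axis) against its ratio of mean TPM, pMx to sham (log axis), coloured by role. Genes under 2 TPM in intact have ratios of at least 2.47, and genes at 10 TPM or more have ratios of at most 2.13.

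The step from sham to pMx was tested against the step from intact to sham for each gene. With limma 0 of the 43 genes passed, where 2.11% of all genes were called in the direction of a larger step from sham to pMx and 4.54% in the other. At an unadjusted p below 0.05 there were 12 genes, all with the larger step from sham to pMx, where 10.7% of all genes were in that direction and 12.6% in the other. The median difference between the steps was 0.44 on the log2 scale, against 0.03 for all genes, and it ran from -0.08 for Rrm2 to 1.06 for Uhrf1. The median was 0.23 without sham replicate 3 and 0.62 without sham replicate 2. The count was 1 after median-of-ratios rescaling, 5 after quantile normalization and 2 without intact replicate 3. No share of all genes was computed for these fits.

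Libraries within a group did not stand in the same place for every gene, but sham replicate 3 was the lowest sham library for 39 of the 43 genes, as it was for 46.5% of all genes. Sham replicate 2 was the highest for 31, against 38.5% of all genes. In pMx, replicate 2 was the lowest for 35 of the 43, against 29.5% of all genes. The median coefficient of variation of the 43 genes was 14.4% in intact, 17.0% in sham and 8.04% in pMx. Without sham replicate 3 the count of genes higher in pMx than in sham was 35, and 13 rather than 20 passed both thresholds. Without it 24 genes were higher in sham than in intact. The shares of all genes called in this fit were not computed.

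The count between sham and intact changed when libraries were left out. It was 4 without sham replicate 1 and 4 without sham replicate 2. It was 9 without intact replicate 2, 11 without pMx replicate 1, and 6 when only the libraries of these 2 groups were fitted. The share of all genes called in these fits was not computed, so whether it changed alike is unknown. At an unadjusted p below 0.05 there were 28 genes, 27 of them higher in sham, where 13.8% of all genes were higher and 15.0% lower. The count between pMx and intact was 42 of 43 in either direction whichever library was left out.

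Summed over the 43 genes, the level was 430, 447 and 408 TPM in the intact libraries, 549, 575 and 466 in sham, and 920, 849 and 957 in pMx. The groups did not overlap. The mean was 428 ± 19.9 TPM in intact, 530 ± 57.3 in sham and 909 ± 54.9 in pMx (SD, n = 3), which makes ratios of 1.72 between pMx and sham and 1.24 between sham and intact. In a bulk sample fewer cells of a type and less RNA per cell cannot be told apart, so a sum does not say whether more cells or more transcript per cell were present. By role, the ratio of mean summed TPM between pMx and sham ran from 1.33 for polymerases and primase and 1.35 for the clamp group to 2.24 for origin licensing and 2.42 for the G1/S regulators.

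A list of 25 mitosis genes, which act after replication in the same cycle, was higher as well. In pMx against sham 25 of 25 were higher, against 17.7% of all genes, with log2 fold changes from 0.98 for Bub1 to 1.81 for Top2a and a median of 1.55. In sham against intact 24 of 25 were higher, against 6.73% of all genes, with a median of 1.04, and Tpx2 did not pass. Of the 24, Ccnb1 and Foxm1 passed there in 1 of 9 fits without 1 library, Aurkb in 2, Aurka in 5, Bub1 in 6, and Bub1b, Cenpe and Ttk in 8. Summed mitosis TPM was 65.3 ± 3.81 in intact, 182 ± 48.0 in sham and 573 ± 34.6 in pMx (SD, n = 3). The summed level of the 43 genes was 7.03, 6.52 and 6.16 times the summed mitosis level in the intact libraries, 3.06, 2.49 and 3.44 times in sham, and 1.53, 1.59 and 1.64 times in pMx. These ranges did not overlap, and no test of the difference between the lists was run.

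Replication genes outside the set were counted in the same way. Of 45 such partners, 19 were higher and 3 lower in pMx than in sham, with a median log2 fold change of 0.11, and 4 were higher and 0 lower in sham than in intact. Among all genes 17.7% were higher and 18.9% lower in the first comparison and 6.73% and 5.97% in the second, so the 4 of 45 lie near the share of all genes. Past both thresholds between pMx and sham were Asf1b (1.69), a histone chaperone, Clspn (1.42), a checkpoint mediator at the fork, Dbf4 (1.25), the activator of the CDC7 kinase, and Timeless (1.02), a fork protection factor. Rrm2b, the subunit of ribonucleotide reductase that is also made outside S phase, had the largest decrease, with a log2 fold change of -0.82 (adjusted p = 0.0002721 in limma). It was at 20.6 TPM in intact, 16.2 in sham and 8.74 in pMx on average, whereas Rrm2 went from 1.37 to 9.28 and 36.5. Summed TPM of the 45 genes was 753 in intact, 762 in sham and 834 in pMx.

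Genes of the G1 and RB-E2F pathway were counted against the same shares of all genes. Of 29 genes, 14 were higher and 5 lower in pMx than in sham, with a median log2 fold change of 0.28, and 4 were higher and 1 lower in sham than in intact. Among all genes 17.7% were higher and 18.9% lower in the first comparison and 6.73% and 5.97% in the second. The 5 lower genes lie near the 18.9% of all genes. Higher past both thresholds between pMx and sham were the E2F repressor E2f7 (1.21) and the CDK4 and CDK6 inhibitors Cdkn2a (1.57) and Cdkn2b (1.19). Cdkn2c (-0.04) and Cdkn2d (0.10), inhibitors of the same kinases and named after their values were seen, did not pass in this comparison. Cyclin D2, Ccnd2, had the largest decrease, at -0.95 (adjusted p = 0.001851 in limma). The other 4 that fell, named after their values were seen, were Rb1, Rbl2, Tfdp2 and Cdkn1b. Genes of the same families went the other way. Rbl1 was higher by 0.83, in 9 of 9 fits without 1 library, and Tfdp1, also named after its value was seen, was higher. Between sham and intact the CDK inhibitor Cdkn1c was higher by 1.99 (adjusted p = 0.001293) and Tfdp2 was lower by a log2 fold change of -0.39, in 5 of 9 fits without 1 library. Transcripts of cyclin E and of the inhibitors Cdkn2a and Cdkn2b were thus all higher in pMx than in sham.

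**Figure D5:**
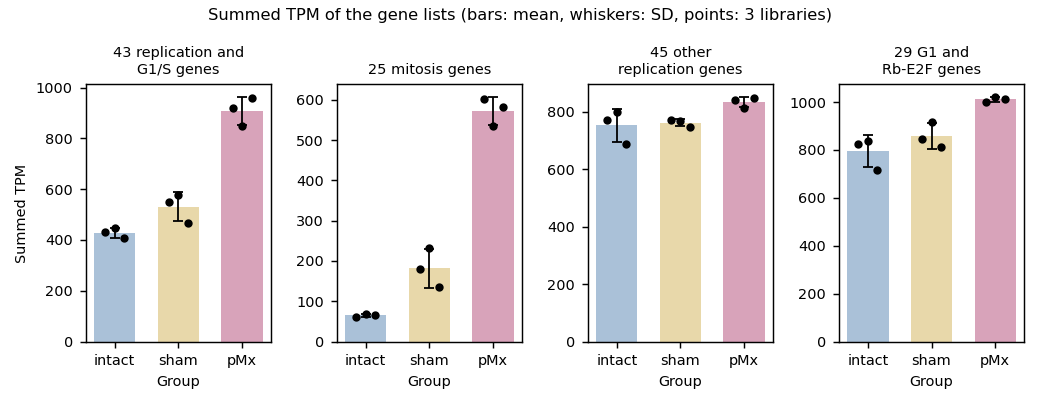
Summed TPM of the 43 replication and G1/S genes, 25 mitosis genes, 45 other replication genes and 29 G1 and RB-E2F genes in the 3 groups, with bars for the mean, whiskers for the SD and points for the 3 libraries. The sum of the 43 genes rises from 428 to 530 and 909 TPM and that of the mitosis genes from 65.3 to 182 and 573 TPM, while the 45 other replication genes range only from 753 to 834 TPM on average.

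Markers of some cell types in the tissue also differed between the groups, and those of others did not. All 8 synovial fibroblast markers, among them Prg4, Thy1 and Col1a1, were above 0 TPM in every library, and their sum was 0.867% to 1.15% of all TPM in intact, 1.16% to 1.26% in sham and 2.05% to 2.35% in pMx, with 3 higher and 2 lower in pMx than in sham, against 17.7% and 18.9% of all genes. Col1a1 alone rose by more TPM than the sum did, from a mean of 4501 TPM in sham to 15669 in pMx. Cd55 (log2 fold change -1.02) and Dcn (-0.94) were lower, and Prg4 did not pass between pMx and sham. The 16 markers of erythroid and granulocyte precursors, most of whose sum is the hemoglobin genes Hbb, Hba-a1 and Hba-a2, took 1.89% to 3.64% in intact, 0.940% to 1.43% in sham and 0.0792% to 0.0925% in pMx. Of these, 7 were lower in pMx than in sham, against 18.9% of all genes, and 9 did not pass there. In sham against intact 9 were lower, against 5.97% of all genes. Gata1, Elane and Ltf were listed at 0 in all pMx libraries, and Ltf was at 0.04 TPM or less in every library. The 6 adipocyte markers fell from 0.432% to 0.469% in sham to 0.0302% to 0.0476% in pMx. Of these, 6 of 6 were lower, against 18.9% of all genes. The 8 macrophage markers took 0.257% to 0.439% in intact, 0.687% to 0.763% in sham and 0.779% to 0.810% in pMx, and 4 of them were higher in sham than in intact, against 6.73% of all genes. Between pMx and sham Cd68 (0.47) was higher and Cd163 (-2.24) and C1qb (-0.67) were lower, counts near the shares of all genes. Most of the macrophage sum was Lyz2, at a mean of 6654 TPM in pMx.

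Endothelial markers were lower in pMx than in sham for 2 of 7 genes and T and B lymphocyte markers for 2 of 6. In either list 0 were higher, where 17.7% of all genes were higher and 18.9% lower, so these small counts lie near the shares. Between sham and intact, 3 of 7 endothelial markers were lower in sham and 0 higher, and 2 of 6 lymphocyte markers were higher and 0 lower. Of the 8 synovial fibroblast markers 3 were higher and 2 lower there. Among all genes 6.73% were higher and 5.97% lower between sham and intact. The 8 skeletal muscle markers took 4.005% of TPM in intact replicate 3, and 0.00568% to 0.270% in the other 8 libraries, with 0 of 8 called. Without intact replicate 3 the count of the 43 genes higher in sham than in intact was 13, and the share of all genes in that fit was not computed. Each library has a fixed total, so a change in these lists also shifts the TPM of every other gene. The study lists RNA integrity as lowest in intact and highest in pMx, with sham between and no overlap of the groups. Its effect thus cannot be told apart from that of the group. The part of cell makeup and of RNA integrity in the differences of the 43 genes was not tested.

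For 12 of the 43 genes, Mcm2, Mcm4, Mcm7, Gins4, Gmnn, Pcna, Rfc4, Rfc5, Rrm1, Rrm2, Tk1 and Dut, the RefSeq table lists pseudogenes or a similar gene. None of these copies has a row among the deposited values, so how reads shared with them were counted is uncertain.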

How the data were processed

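Messenger RNA was drawn with oligo-dT beads from the total RNA of 9 tissue samples in 3 groups and sequenced by BGI. The methods name BGI's Dr. Tom system for the analysis of the data. The authors deposited TPM values rounded to 2 decimals. The submitters' processing notes list HISAT2 2.0.4 and the genome build mRatBN7.2, and the counting tool, the annotation, the use of strand and any filter are not given in the sources used here. Samples were grouped by their titles, and the number of columns of per-sample values left unmapped was 0.

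Deposited values were taken as log2(TPM + 1), and 16512 genes with a value above 0 in 3 or more of the 9 libraries were kept. The 3 group means were fitted together in limma 3.58.1 (R 4.3.3, eBayes with trend), so that the groups shared 1 estimate of the spread, with Benjamini-Hochberg adjustment over all genes tested. A gene passed the test at an adjusted p below 0.05, and a stricter count also required an absolute log2 fold change above 1, the thresholds of the study. For a gene around 1 TPM or lower, the added 1 makes the fold change too small.

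The 43 genes, the lists of partners, pathway genes and cell type markers, and the tests were chosen with earlier results of these data known, so no p was computed for a list. Named outside the 43 were list genes past both thresholds and the highest and lowest of each list, and genes that the text says were named after their values were seen. Cell type markers were named to show what carried a sum, which members passed or did not pass, and which were at 0 TPM. Positions and promoter sequences come from RefSeq tables of GRCr8, matched by gene identifier, and not from the build behind the values. Figures were drawn with Matplotlib 3.10.9.

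The alternatives were pseudocounts of 0.1 and 0.01, a mean of at least 1 TPM, the unfiltered table, rescaling by median-of-ratios or by quantiles, separate fits of the 6 libraries compared, eBayes with robust settings or with no trend, the replicate number as a block, an adjusted p below 0.01, and leaving out each library in turn.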

Additional observations from a re-analysis of the deposited data

How the results depend on the processing

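Among the 43 genes, the count passing the test was 34 to 41 for pMx versus sham and 41 to 42 for pMx versus intact under the alternatives that kept all libraries, and 35 to 42 and 42 to 42 when 1 library was left out. Leaving out 1 library took the call between pMx and sham from Gins2, Lig1, Pcna, Rfc4 and Rfc5, which each passed in 4 to 6 of 9 such fits. Past both thresholds the count ran from 13 to 22 between pMx and sham and from 25 to 28 between pMx and intact when 1 library was left out, and from 19 to 22 and 24 to 29 with all libraries kept. Between sham and intact the count of 17 became 6 in the fit of 6 libraries and 2 at an adjusted p below 0.01, and ran from 4 to 24 without 1 library. The count of 3 past both thresholds there became 12 with a pseudocount of 0.1 and 13 with 0.01, and ran from 2 to 7 without 1 library. For the difference between the steps the count of 0 became 1 after median-of-ratios rescaling and 5 after quantile normalization, and ran from 0 to 2 without 1 library. Shares of all genes were not computed under the alternatives, so these counts stand without them.

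With the replicate block the counts were 39, 12 and 42 for pMx versus sham, sham versus intact and pMx versus intact, 20, 3 and 25 past both thresholds, and 0 for the steps. The labels do not say whether same-numbered libraries belong together, and the numbers were not taken as pairs. Their deviations correlated at 0.0346 to 0.485 between pMx and sham and at -0.664 to 0.00161 in the other pairs of groups, and 5, 0 and 0 of 6 libraries correlated best with their own number, which is a hint from the data and not from the design.

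Values near 0 changed sign and did not pass the test in any of these fits. The log2 fold change of Orc3 between pMx and sham was 0.0191 after quantile normalization. Without 1 library it ran from -0.0873 to 0.0630 for Orc3, -0.0493 to 0.0517 for Rpa1, -0.15 to 0.0628 for Pold2, -0.000866 to 0.15 for Pold3 and -0.0926 to 0.00424 for Orc5. That of Lig1 between sham and intact ran from -0.0776 to 0.18, and that of Pola1 between pMx and intact from -0.0226 to 0.17. The cause of these changes was not tested. Rescaling moved the median of all genes by less than 0.1 on the log2 scale. With 3 libraries per group and unknown depth, genes near 0 TPM such as Orc1 and E2f8 in intact are the least precise.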
